A study of Mus musculus with 12 samples.

Results

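The Kruppel-like factors are transcription factors that share a C-terminal DNA-binding domain of C2H2 zinc fingers and bind GC-rich and CACCC sites, mostly in promoters. They are divided by what their N-terminal parts bind. Members of the activator group (Klf2, Klf4, Klf5, Klf6 and Klf7) recruit acetyltransferases, those of the Sin3-binding group (Klf9, Klf10, Klf13 and Klf16) can recruit the Sin3 corepressor, and Klf15 stands outside these groups. In the brain, Klf6 and Klf7 are known to promote and Klf4 and Klf9 to restrain the growth of axons, Klf2 and Klf4 are abundant in the endothelium of vessels, and Klf9, Klf10 and Klf15 are known as genes that hormones, growth factors or activity can induce.

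The 10 genes Klf2, Klf4, Klf5, Klf6, Klf7, Klf9, Klf10, Klf13, Klf15 and Klf16 were taken by their gene names, out of 17 Klf genes with a locus and between 39647 and 39716 gene names per time point. Their RNA was measured in the prefrontal cortex of male C57BL/6 mice, 10 weeks old, injected intraperitoneally once a day for 14 days with saline or with cocaine at 20 mg/kg, and taken at 2 h, 24 h or 7 d of withdrawal. Cocaine blocks the reuptake of dopamine and other monoamines. The 6 groups carried no transgene, and each group gave 2 libraries, each of which pooled the tissue of 5 mice, with frontal association, prelimbic and orbital cortex dissected together. The authors deposited 1 pooled FPKM (a level of RNA as fragments counted per length of transcript and per number of mapped fragments) per gene and group. These values carry no spread between libraries and no depth, and no test was made, so every ratio below compares 2 pooled values.

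All 10 genes had an FPKM of 1 or more in saline or cocaine at each time point, the minimum set for a ratio. At 2 h, 3 of the 10 genes were at least 1.5-fold higher in cocaine: Klf10 (2.70-fold), Klf4 (2.04-fold) and Klf2 (1.66-fold). Of 13583 genes past the minimum at 2 h, 2.78% were at least 1.5-fold higher and 2.11% at least 1.5-fold lower. Of the 10 Klf genes 0 were lower by as much. Klf11, a Klf gene outside the 10, was lower by as much, from 1.92 to 1.12 FPKM. The 10 genes were chosen with earlier results of these data known, so their count beside these shares is a description only. At 24 h and at 7 d 0 of the 10 genes were past 1.5-fold in either direction. Over all genes 2.04% were higher and 1.93% lower by as much at 24 h, and 1.92% higher and 2.59% lower at 7 d.

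Promoter windows from RefSeq (build GRCm38.p6, 250 bases before to 50 after the start site) were matched for 7 of the 10 genes, namely Klf2, Klf4, Klf6, Klf7, Klf9, Klf13 and Klf15. The part before the start site is shown for Klf2 and Klf4, which were past 1.5-fold at 2 h, and for Klf6, which was lower in cocaine at each time point. Capitals mark the CRE core, TGACG or CGTCA on the other strand, the first part of the site (CRE) of the cAMP-responsive factor CREB. They also mark a site of the factor MEF2, through which the MEK5 and ERK5 kinases are known to induce Klf2 and Klf4.
Klf2, chr8:72318812-72319061, forward strand: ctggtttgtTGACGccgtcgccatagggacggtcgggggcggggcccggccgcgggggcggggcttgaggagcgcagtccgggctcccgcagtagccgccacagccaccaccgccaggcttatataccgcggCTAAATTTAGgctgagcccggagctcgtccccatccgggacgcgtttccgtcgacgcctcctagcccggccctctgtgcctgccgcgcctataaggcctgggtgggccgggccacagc
Klf4, chr4:55532476-55532725, reverse strand: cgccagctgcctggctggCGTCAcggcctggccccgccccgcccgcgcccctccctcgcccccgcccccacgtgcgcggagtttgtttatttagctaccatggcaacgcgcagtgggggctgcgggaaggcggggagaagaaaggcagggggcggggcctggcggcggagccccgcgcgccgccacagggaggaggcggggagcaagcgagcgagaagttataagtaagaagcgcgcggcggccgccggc
Klf6, chr13:5861239-5861488, forward strand: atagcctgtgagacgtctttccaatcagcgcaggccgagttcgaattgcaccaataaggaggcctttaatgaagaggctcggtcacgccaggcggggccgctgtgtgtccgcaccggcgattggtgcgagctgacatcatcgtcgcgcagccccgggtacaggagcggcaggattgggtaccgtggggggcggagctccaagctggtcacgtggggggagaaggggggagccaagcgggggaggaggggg

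Motifs were searched on both strands of the whole windows. The CRE core stood in 5 of the 7 Klf windows, against 20.8% of all 32851 windows: in Klf2 (from -241 to -237 before the start site), Klf4 (-232 to -228), Klf9 (-46 to -42), Klf13 (-56 to -52) and Klf15 (-78 to -74 and -6 to -2). Windows without a match were those of Klf6 and Klf7. The full CRE (TGACGTCA, which contains the CRE core) stood in 1.79% of all windows and in 0 of the 7, and the CArG box, the site of serum response factor, in 1.63% and in 0 of the 7. A MEF2 site stood in 1 of the 7 windows, that of Klf2 (-118 to -109), against 0.557% of all windows. Of the sites that Kruppel-like factors themselves bind, the GC box (GGGCGG) stood in 6 of the 7 windows and in 35.7% of all. CACCC stood in 5 of the 7, near its share of 57.5% of all. The bases of the 7 windows were 58.3% to 74.3% G or C, and no share over all windows was matched for base composition. An E-box (CACGTG), the site of the clock factors, stood in 3 of the 7 windows and in 7.15% of all. A CRE core stood both in windows of genes past 1.5-fold (Klf2 and Klf4) and in that of Klf15, whose log2 ratio at 2 h was 0.12, and a match of these letters shows no binding.

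**Figure D1:**
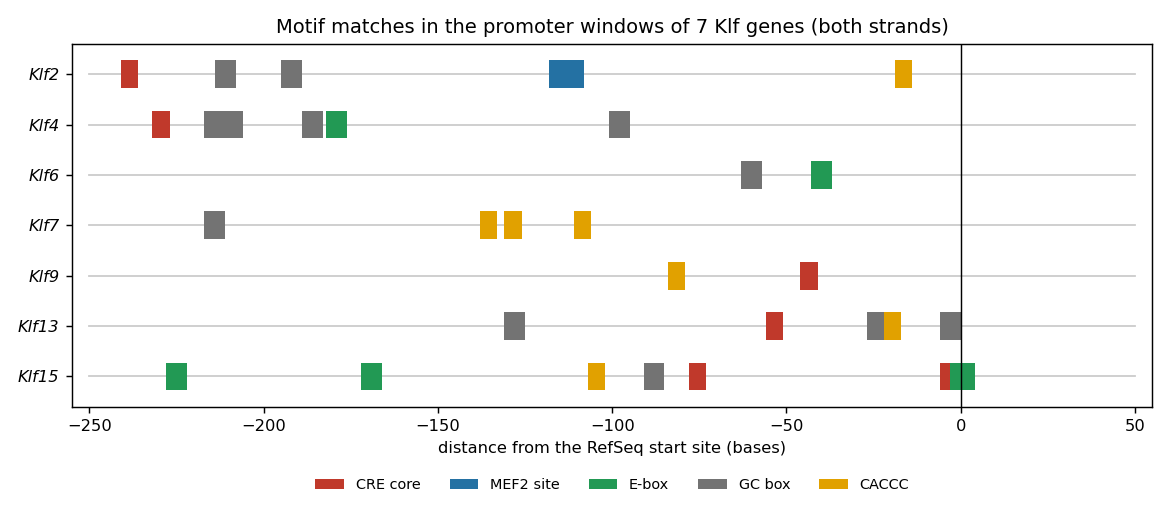
Motif matches in the promoter windows of 7 Klf genes, by distance from the RefSeq start site in bases (horizontal axis). Each coloured block is a match on either strand. Klf2 alone holds a MEF2 site, and the CRE core blocks stand in 5 of the 7 windows.

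In saline mice the levels of the 10 genes spread over more than a decade. Klf9, known as a thyroid hormone and glucocorticoid target in neurons, was the most abundant at 28.5 to 33.1 FPKM over the 3 saline groups. Klf13 (18.1 to 22.6 FPKM) and Klf16 (16.4 to 20.1 FPKM) followed with overlapping ranges, and Klf6 stood at 10.5 to 12.03 FPKM. Next came Klf15 (6.14 to 7.39 FPKM) and Klf10 (6.28 to 8.82 FPKM), whose ranges overlapped, and Klf2 (3.83 to 5.17 FPKM). The lowest levels were those of Klf5 (2.48 to 3.03 FPKM), Klf4 (1.81 to 2.38 FPKM) and Klf7 (1.64 to 2.17 FPKM), of which the ranges of Klf4 and Klf7 overlapped. Klf9, Klf13 and Klf16, all of the Sin3-binding group, made up 66.8%, 64.2% and 65.2% of the summed saline FPKM of the 10 genes at 2 h, 24 h and 7 d.

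The 10 genes summed to 112, 109 and 99.1 FPKM in saline at 2 h, 24 h and 7 d, and to 140, 118 and 109 FPKM in cocaine. Their median log2 ratios of cocaine over saline at these times were 0.21, 0.10 and 0.14, beside medians of 0.02, 0.01 and -0.01 over all genes. A higher FPKM in cocaine was found for 7, 7 and 8 of the 10 genes and for 56.4%, 53.1% and 47.8% of all genes.

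**Figure D2:**
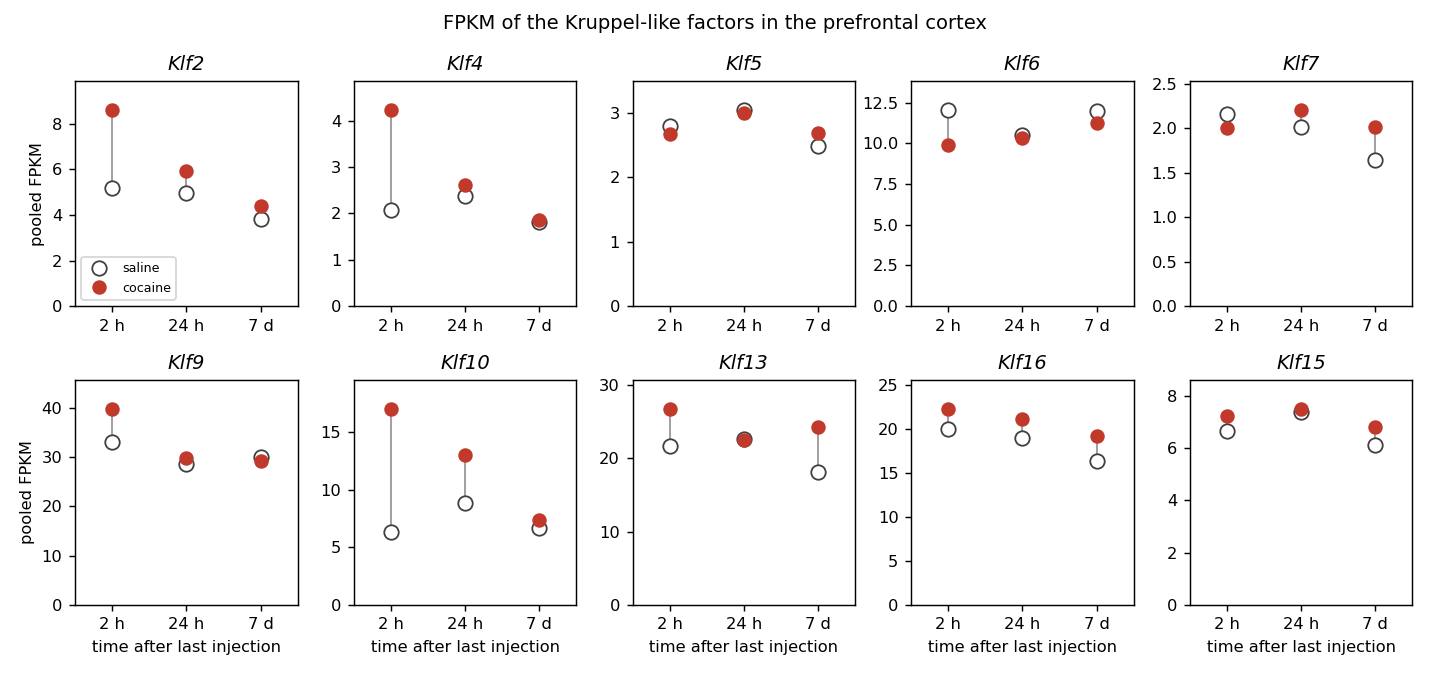
Pooled FPKM (vertical axis, from 0) of each of the 10 genes in saline (open circles) and cocaine (filled circles) at 2 h, 24 h and 7 d after the last injection (horizontal axis); each circle is the authors' single value for a group, with no error bar because values per library are not in it. The widest gap in FPKM is that of Klf10 at 2 h (6.28 against 17.0), the gaps of Klf4 and Klf2 at 2 h are wide beside their own levels, and the cocaine circle of Klf6 lies under the saline circle at all 3 time points.

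Klf10 showed the largest ratio of the family. It was first described as TIEG1, a gene induced early by transforming growth factor beta, and its protein binds Sin3. Klf10 stood at 6.28, 8.82 and 6.63 FPKM in saline mice at 2 h, 24 h and 7 d, and at 17.0, 13.0 and 7.33 FPKM in cocaine mice. The cocaine values at 2 h and 24 h lay above all 3 saline values, and the one at 7 d lay between them. Its log2 ratios at these times were 1.44, 0.56 and 0.14. The ratio at 24 h (1.47-fold) was the one nearest to the threshold, 0.585 on the log2 scale, from below. Among 5050 genes within a 2-fold band of its mean level at 2 h, 14 (0.277%) had a ratio as high or higher, and among 5077 at 24 h, 48 (0.945%) did. At 2 h and 24 h the tables list 2 loci under this name with the same span (chr15:38294408-38343136 on GRCm38) on opposite strands, and the values above are those of the annotated strand. On the other strand saline and cocaine stood at 1.32 and 1.31 FPKM at 2 h and at 1.08 and 0.888 FPKM at 24 h. At 7 d the locus was shorter (chr15:38294413-38300707), so the values of Klf10 at 7 d come from a different span than those at 2 h and 24 h wherever they are set beside each other.

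Klf4 and Klf2 of the activator group, both markers of vessel endothelium that repress inflammatory genes there, were the other genes past 1.5-fold. Klf4, on chromosome 4 (55527143 to 55532466, reverse strand), stood at 2.07, 2.38 and 1.81 FPKM in saline and at 4.23, 2.62 and 1.85 FPKM in cocaine at the 3 time points. The cocaine value of Klf4 at 2 h was the highest of the 6, that at 24 h was above all 3 saline values by a smaller distance, and that at 7 d lay among them. The log2 ratios of Klf4 were 1.03, 0.14 and 0.03, and at 2 h 34 of 4297 genes of like level (0.791%) had a ratio as high or higher. Klf2, on chromosome 8 (72319033 to 72321656, forward strand), stood at 5.17, 4.95 and 3.83 FPKM in saline and at 8.59, 5.93 and 4.38 FPKM in cocaine. Again the value at 2 h in cocaine was the highest of the 6, and the value at 24 h was above all saline values. The log2 ratios of Klf2 were 0.73, 0.26 and 0.19, and at 2 h 52 of 5060 genes of like level (1.03%) had a ratio as high or higher.

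Because Klf2 and Klf4 are abundant in vessels, endothelial markers were read beside them. At 2 h 9 of 12 endothelial markers had a higher FPKM in cocaine, 0 of 12 were past 1.5-fold, and their median log2 ratio was 0.14 (range -0.10 to 0.44). The 12 markers summed to 188, 207 and 183 FPKM in saline at the 3 time points and to 219, 209 and 197 FPKM in cocaine. Among them, the tight junction gene Cldn5 went from 38.0 to 41.6 FPKM, Pecam1 from 7.83 to 8.53 and the cadherin Cdh5 from 4.41 to 5.36 at 2 h. Lower in cocaine at 2 h were Emcn (log2 ratio -0.10), Slco1a4 (-0.07) and Tie1 (-0.005), and the highest ratio was that of Slc2a1 (0.44). The ratios of Klf2 and Klf4 at 2 h thus lay above the highest of the 12 markers, and the part of vessel cells in them was not tested. In RNA of whole tissue, fewer cells of a type and less RNA per cell cannot be told apart. Smooth muscle and pericyte markers had a median log2 ratio of 0.15 at 2 h, with 0 of 7 past 1.5-fold, and microglia markers one of 0.08, with 0 of 8.

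Klf5, Klf6 and Klf7 of the same group showed no ratio past 1.5-fold. Klf6, on chromosome 13 (5861489 to 5870393, forward strand), stood at 12.03, 10.5 and 11.99 FPKM in saline and at 9.89, 10.3 and 11.2 FPKM in cocaine. It was the one member with a lower value in cocaine at all 3 time points, and its cocaine values at 2 h and 24 h were below all 3 saline values. The log2 ratios of Klf6 were -0.28, -0.03 and -0.09, and at 2 h 172 of 5059 genes of like level (3.40%) had a ratio as low or lower. At 24 h and 7 d 33.8% and 31% of genes of like level did, so the ratios of Klf6 at these times were ordinary. The share of all genes that were lower at all 3 time points was not counted. Klf7, which is needed for the outgrowth of sensory and cortical axons, stood at 2.17, 2.01 and 1.64 FPKM in saline and at 2.00, 2.20 and 2.01 FPKM in cocaine. Its log2 ratios ran from -0.12 at 2 h through 0.13 at 24 h to 0.29 at 7 d, where the saline value was the lowest of the 6 and the cocaine value lay among the saline values. Klf7 at 7 d was 0.16 once the trend over transcript length was taken out; its transcript is 7664 bases long. Klf5, known from proliferating epithelium and smooth muscle, stood between 2.48 and 3.03 FPKM in all 6 groups, with log2 ratios of -0.06, -0.02 and 0.12. Over the 5 expressed genes of the activator group the median log2 ratio at 2 h was -0.06, with a range from -0.28 to 1.03, and 2 of the 5 had a higher value in cocaine.

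Of the abundant members of the Sin3-binding group, Klf9 had its largest ratio at 2 h and Klf13 at 7 d. Klf9, on chromosome 19 (23139847 to 23168124 at 2 h, forward strand), stood at 33.1, 28.5 and 30.1 FPKM in saline and at 39.7, 29.8 and 29.2 FPKM in cocaine. The cocaine value at 2 h was the highest of the 6 and the other cocaine values lay among the saline values, with log2 ratios of 0.26, 0.06 and -0.05. A locus of the same name and span on the reverse strand held more than the forward one: at 2 h saline stood at 55.7 and cocaine at 56.6 FPKM, and at 24 h they stood at 40.4 and 41.0 FPKM. The library kit does not keep the strand, so reads of the overlapping loci cannot be told apart, and with the reverse locus in its place the log2 ratio of Klf9 at 2 h was 0.03. At 7 d only 1 locus of this name was listed, with another span (23139781 to 23168125). The comparisons of Klf9 values across time, its saline range among them, thus set unlike loci side by side.

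Klf13, also called BTEB3, was the member with the largest ratio at 7 d. It lies on chromosome 7 (63886347 to 63938915, reverse strand) and stood at 21.7, 22.6 and 18.1 FPKM in saline and at 26.7, 22.5 and 24.3 FPKM in cocaine. The cocaine values at 2 h and 7 d were above all 3 saline values and the one at 24 h was level with its saline value. Its log2 ratios were 0.30, -0.01 and 0.42, and at 7 d 34 of 3993 genes of like level (0.851%) had a ratio as high or higher. The saline value at 7 d was the lowest of the 6. Klf13 at 7 d was 0.33 once the trend over transcript length was taken out, and its transcript is 6396 bases long. Klf16, described as a dopamine receptor regulating factor for its binding to dopamine receptor promoters, stood at 20.1, 19.0 and 16.4 FPKM in saline and at 22.3, 21.2 and 19.2 FPKM in cocaine. Each cocaine value of Klf16 was above the saline value of its own time point by a similar step, 0.15, 0.16 and 0.23 on the log2 scale, and that at 7 d lay among the 3 saline values. Klf15, a glucocorticoid-induced gene that controls amino acid and glucose metabolism in liver and muscle, stood at 6.65, 7.39 and 6.14 FPKM in saline and at 7.22, 7.50 and 6.80 FPKM in cocaine. Its log2 ratios were 0.12, 0.02 and 0.15, smaller than the log2 range of its 3 saline values, 0.27.

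**Figure D3:**
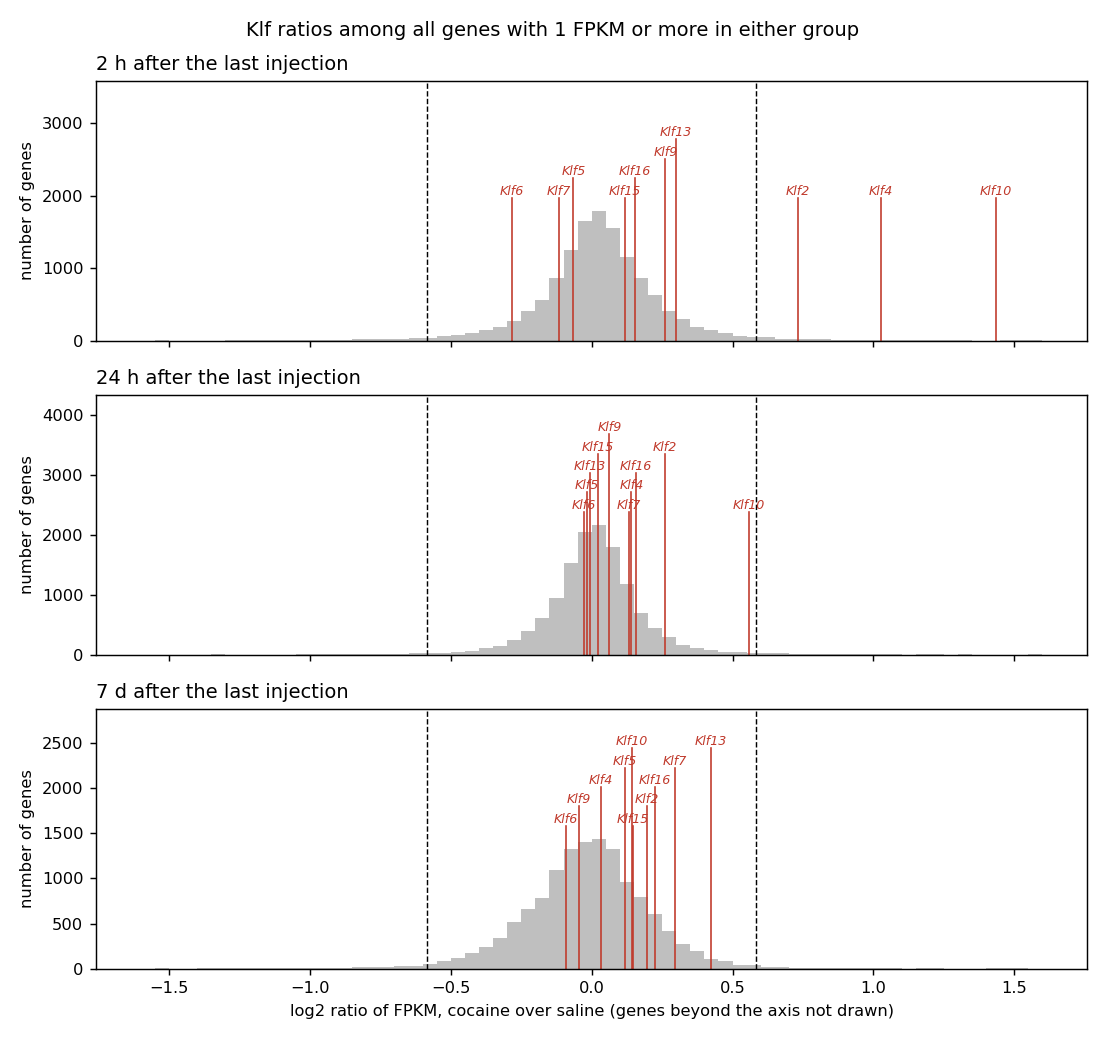
Log2 ratio of FPKM, cocaine over saline (horizontal axis), for all genes with 1 FPKM or more in either group (grey, number of genes per bin on the vertical axis) and for the 10 Klf genes (labelled lines) at 2 h, 24 h and 7 d. Dashed lines mark 1.5-fold, and the heights of the labelled lines only keep the names apart. Klf2 (0.73), Klf4 (1.03) and Klf10 (1.44) lie beyond the upper dashed line at 2 h, Klf10 (0.56) lies just under it at 24 h, and at 7 d the farthest is Klf13 (0.42).

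The range of the 3 saline groups is the only spread between control groups in these values, and it also holds the time after injection and the separate normalization of the 3 tables. Over 12501 genes its median was 0.21 on the log2 scale and its 95th percentile 0.61, and for the 10 Klf genes it ran from 0.20 (Klf6) to 0.49 (Klf10). The log2 ratios at 2 h exceeded the saline range of the same gene for Klf2 (0.73 against 0.43), Klf4 (1.03 against 0.40), Klf10 (1.44 against 0.49), Klf9 (0.26 against 0.22) and, in the downward direction, Klf6 (-0.28 against 0.20). These were 4 of the 10 genes upward and 1 downward, beside 13.5% and 10.8% of the 12501 genes. Klf9 was under its saline range with its loci summed (0.12) or with the reverse locus (0.03). At 24 h Klf10 (0.56 against 0.49; 9.96% of all genes upward and 6.5% downward) and at 7 d Klf13 (0.42 against 0.32; 7.68% upward and 15.8% downward) exceeded theirs, and 1 of 10 upward is near the share over all genes at both times. Cocaine values above all 3 saline values were found for 6 of the 10 genes at 2 h (Klf2, Klf4, Klf9, Klf10, Klf13 and Klf16), as for 29.5% of 14018 genes. At 24 h they were found for 6 (Klf2, Klf4, Klf7, Klf10, Klf15 and Klf16, background 28.7%) and at 7 d for Klf13 alone, background 14.1%. Klf15 at 24 h lay above by little (7.50 against 7.39 FPKM). With the 6 groups scaled to one median the count at 24 h was 5, and no background was counted for that setting. Values below all saline values were found for Klf6 at 2 h (background 24.6%) and at 24 h (background 17.7%), and for 0 genes at 7 d (background 24.4%).

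The ratios at the 3 time points were set side by side. The log2 ratio of Klf10 at 2 h was 0.88 above that at 24 h and 1.29 above that at 7 d, that of Klf4 0.89 and 0.99 above, and that of Klf2 0.47 and 0.54 above. Klf13 differed from this order, with a ratio at 7 d that was 0.43 above that at 24 h and 0.12 above that at 2 h. With 1 value per group none of these differences was tested. Of the 3 cocaine levels, that at 2 h was the highest for Klf2, Klf4, Klf9, Klf10, Klf13 and Klf16. The share of all genes with this order was not counted, and the 3 time points were normalized separately. The median log2 FPKM over all genes with 1 FPKM or more in all 6 groups was also highest in cocaine at 2 h (3.232) and lowest in cocaine at 7 d (3.159).

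Genes whose 3 ratios lay nearest to those of the members past 1.5-fold were sought among 12501 genes with 1 FPKM or more in all 6 groups, by Euclidean distance over the 3 log2 ratios. Nearest to Klf10 were Rasl11a (distance 0.21, log2 ratios 1.51, 0.36 and 0.20), the clock repressor gene Per1 (distance 0.29, log2 ratios 1.24, 0.78 and 0.09) and the insulin receptor substrate gene Irs2 (distance 0.32, log2 ratios 1.23, 0.46 and 0.36). Nearest to Klf4 were Tiparp (distance 0.06), Sdf2l1 (0.09) and Nedd9 (0.12), and nearest to Klf2 were Zscan2 (distance 0.02), Pdgfb (0.05), which encodes a platelet-derived growth factor chain, and Otud1 (0.06). Klf10 had a wider distance to its nearest gene than Klf4 and Klf2 had to theirs. Fewer genes of like level reached its ratio at 2 h (0.277%) than reached those of Klf4 (0.791%) and Klf2 (1.03%). The distances were not corrected for this, so their order says nothing beyond the sizes of the ratios.

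The other Klf genes were mostly low. Klf11, the closest relative of Klf10 and also a Sin3-binding factor, was the only Klf gene past the minimum that was at least 1.5-fold lower in cocaine: it stood at 1.92, 1.76 and 1.71 FPKM in saline and at 1.12, 1.46 and 1.80 FPKM in cocaine, with log2 ratios of -0.78, -0.26 and 0.07. The cocaine values at 2 h and 24 h were below all 3 saline values of Klf11, opposite in direction to Klf10. The CtBP-binding repressors Klf3 and Klf12 stayed under 1.5-fold, with log2 ratios at the 3 time points of 0.31, -0.08 and 0.17 for Klf3 and of 0.03, -0.03 and 0.36 for Klf12. Klf1, Klf8 and Klf14 stayed under 1 FPKM in every group. Klf17 was listed at 0 in both groups at 24 h and 7 d, and at 2 h it was listed at 0 in cocaine and at 0.0227 FPKM in saline. Of the 9 Sp factors, which share the zinc fingers and the GC-rich sites, 4 passed the minimum, 0 were past 1.5-fold at any time point, and their log2 ratios at 2 h ran from -0.15 to 0.09. Sp6 was listed at 0 throughout.

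Partners and known targets showed no ratio past 1.5-fold. Of 10 coregulators and ubiquitin ligases of the family with a locus of their own at 2 h, among them Sin3a (6.21 against 6.15 FPKM), Ep300 (5.28 against 6.43) and Fbxw7 (58.7 against 48.0), 0 were past it at 2 h, as were 0 of 10 at 24 h and 0 of 9 at 7 d. In the MEK5, ERK5 and MEF2 pathway 0 of 7 genes were past 1.5-fold at each time point; at 2 h Mef2d had a log2 ratio of 0.32 and Mapk7, which encodes ERK5, one of -0.29. Of 5 target genes past the minimum, 0 were past 1.5-fold at each time point. The anticoagulant receptor gene Thbd, a Klf2 target in endothelium, had log2 ratios of 0.49, 0.06 and 0.35, and Nos3, the endothelial nitric oxide synthase, ones of 0.34, 0.04 and -0.11. Maoa and Maob, monoamine oxidase genes that members of the family regulate, had log2 ratios of -0.20 and 0.07 at 2 h. Drd2, a dopamine receptor gene whose promoter Klf16 can bind, stood between 0.146 and 0.234 FPKM in all groups, under the minimum.

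Induced gene programs with which single members share an inducer were counted in the same way. Of 17 immediate-early genes, which activity induces within minutes, 15 were at least 1.5-fold higher at 2 h, 8 higher and 1 lower at 24 h, and 5 of 16 higher at 7 d, with median log2 ratios of 1.28, 0.49 and 0.48. The largest at 2 h were Arc (3.80), Egr2 (3.62), Fos (2.82), Junb (2.44), Nr4a1 (2.19) and Dusp1 (2.05), all above Klf10. Egr2 passed the minimum through its cocaine values alone, with 0.466 FPKM in saline at 2 h and 0.716 at 24 h, and at 7 d it was under the minimum in both groups, with a log2 ratio of 1.86. At 24 h the largest were Egr2 (1.68), Fos and Arc (1.23 and 1.22), Egr1 (0.995) and Nr4a3 (0.77), with Nr4a2 at -0.78, and at 7 d Arc (1.74), Fos (1.55), Egr1 (0.76), Dusp1 (0.75) and Nr4a1 (0.61) were past 1.5-fold. Klf10, Klf4 and Klf2 were near 0 on the log2 scale at 7 d (0.14, 0.03 and 0.19), below the median of that list.

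Among 10 genes induced by glucocorticoids, as Klf9 and Klf15 are, 3 were at least 1.5-fold higher at 2 h: Per1 (log2 ratio 1.24), Fkbp5 (0.64) and the sulfotransferase gene Sult1a1 (0.63). At 24 h it was Per1 (0.78) and at 7 d 0 of 10, and the medians were 0.37, 0.13 and 0.10. Klf9 (0.26) and Klf15 (0.12) at 2 h lay below that median. Of 9 early targets of transforming growth factor beta, the inducer for which Klf10 is named, 2 were at least 1.5-fold higher at 2 h, Smad7 (from 3.11 to 5.00 FPKM) and Tgif1 (from 0.578 to 1.04 FPKM). Tgif1 passed the minimum through its cocaine value alone, and at 7 d it was under the minimum in both groups with a log2 ratio of 0.84. At 24 h and 7 d 0 of 8 were, and the medians were 0.25, 0.15 and 0.12.

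**Figure D4:**
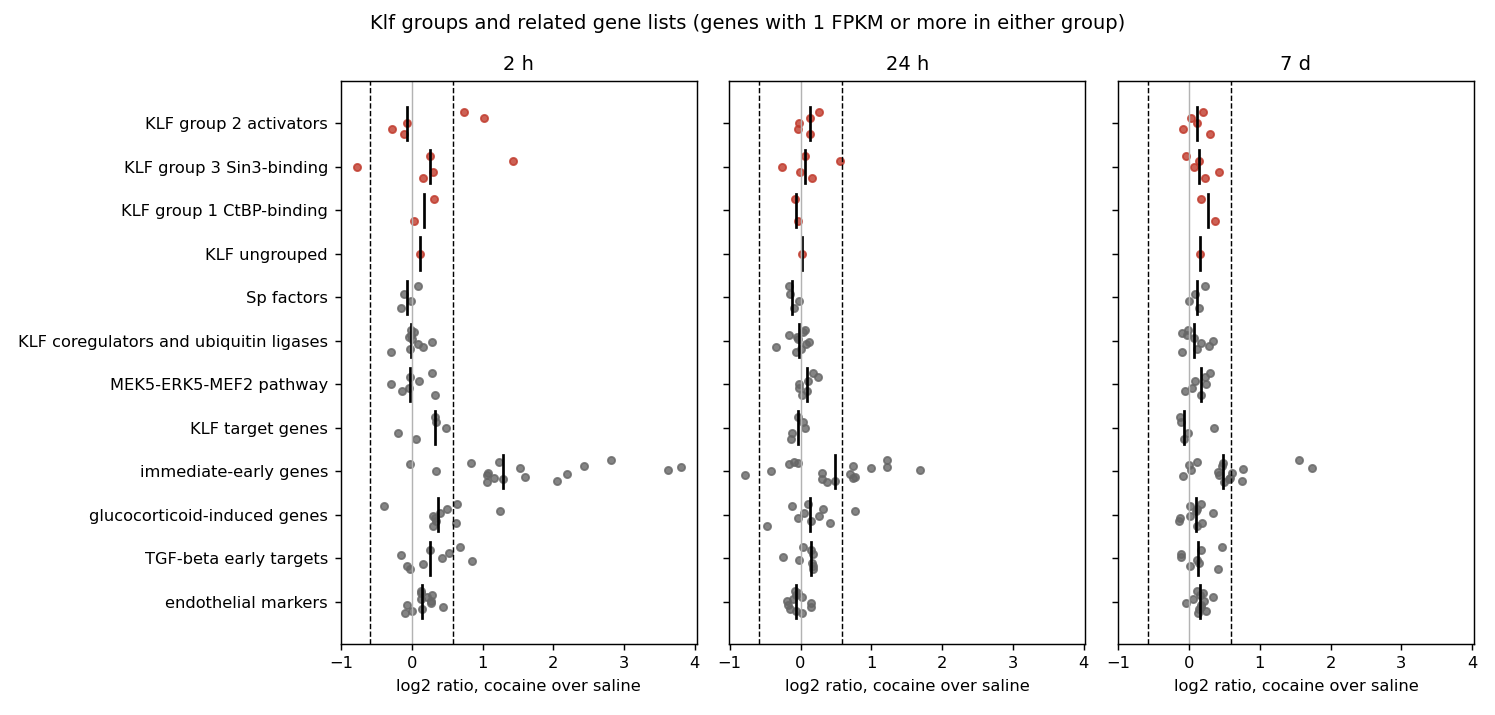
Log2 ratio of FPKM, cocaine over saline (horizontal axis), of each gene with 1 FPKM or more in either group in the Klf groups (red) and related gene lists (grey, vertical axis) at 2 h, 24 h and 7 d. Black bars are list medians and dashed lines mark 1.5-fold. Most immediate-early genes lie right of the upper dashed line at 2 h (median 1.28), whereas coregulators (median -0.01) and endothelial markers (median 0.14) lie between the lines.

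Among marker lists, the 7 neuron markers with a locus of their own summed to between 3383 and 3574 FPKM in the 6 groups, with median log2 ratios of 0.03, 0.01 and 0.06. All 6 astrocyte markers were higher in cocaine at 2 h and at 7 d (medians 0.16 and 0.21) and lower at 24 h (median -0.18), and oligodendrocyte markers had medians of -0.05, -0.15 and 0.03. Endothelial markers (medians 0.14, -0.06 and 0.15) and smooth muscle and pericyte markers (0.15, -0.05 and 0.28) were likewise lower at 24 h than at the other times. So was Klf13 (0.30, -0.01 and 0.42), and the part of these cell types in its ratios was not tested. Of 6 choroid plexus markers 3 passed the minimum at each time point, and they did not share a direction. Ttr had log2 ratios of -2.04, -0.71 and 4.53, and at 7 d it stood at 0.284 FPKM in saline and 6.54 in cocaine. Kcnj13 had log2 ratios of 0.32, 0.07 and 0.09, and Enpp2, which other brain cells express too, 0.07, 0.04 and -0.05. The markers Folr1, Kl and Clic6 stayed under 1 FPKM in all 6 groups. The part of choroid plexus in the Klf ratios was not tested.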

How the data were processed

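RNA of the prefrontal cortex was sequenced in 12 libraries, 2 per group. The authors trimmed the reads (Trimmomatic 0.32), aligned them with TopHat2 2.0.12 and ran Cuffdiff of Cufflinks 2.2.1 per time point, by the submitters' processing notes. The deposited tables hold 1 FPKM per locus and group, pooled over the 2 libraries. They also hold the authors' own log2 fold change, test statistic, p value, q value and call, none of which was used. Saline was taken as the first and cocaine as the second value column, from the series' description and the heads of the study's tables, since the short column labels do not match the sample titles. Positions are 1-based on GRCm38, where 99.9% of loci with 1 name overlapped that gene; the methods name an earlier build.

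The Klf genes and the gene lists were chosen with earlier results of these data known. Each gene name took its longest locus, and ties went to the annotated strand, a rule chosen after such loci were seen. Ratios were cocaine over saline with no pseudocount, for genes with 1 FPKM or more in either group, and a ratio of at least 1.5-fold was counted as called. No test was made, since the values used are 1 per group. Genes of other lists were named when past 1.5-fold, up to 6 per list and time point; the other list genes given with values, apart from those at 0, were chosen after their values were seen. The 3 nearest genes were named for each member past 1.5-fold. Python 3.11.15, pandas 2.3.3, numpy 2.4.6 and matplotlib 3.10.9 were used, and the steps were tested on simulated data. The alternatives tried were other pseudocounts, minimums, fold thresholds, scalings and loci, and a correction for transcript length.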

Additional observations from a re-analysis of the deposited data

Results flagged for a closer look

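Ratios in opposite directions at different time points flagged genes of the lists read beside the Klf genes. The immediate-early gene Nr4a2 had a log2 ratio of 1.06 at 2 h and -0.78 at 24 h, 1.84 apart. In saline it stood at 1.44, 2.56 and 1.46 FPKM at 2 h, 24 h and 7 d, and in cocaine at 3.01, 1.49 and 1.95 FPKM. The saline value at 24 h was thus the highest of the 3, and the cocaine value at 24 h was near the other saline values. The choroid plexus transcript Ttr had log2 ratios of -2.04 at 2 h, -0.71 at 24 h and 4.53 at 7 d, so that the ratio at 7 d was 6.57 above that at 2 h and 5.24 above that at 24 h. The other choroid plexus markers past 1 FPKM differed less, with log2 ratios at the 3 time points of 0.32, 0.07 and 0.09 for Kcnj13 and of 0.07, 0.04 and -0.05 for Enpp2. Each group is 1 pooled value, and the difference was not tested in any of these cases.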

How the results depend on the processing

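No paired analysis was possible because each group is given as 1 pooled value, and for the same reason no library could be left out. With a lower threshold, 0.32 in place of 0.585 on the log2 scale, the count of Klf genes at 24 h was 1 (Klf10) and at 7 d 1 (Klf13), in place of 0; 4.83% and 6.25% of all genes were higher by as much, so that 1 of 10 is near the background. With the other settings the counts and medians of the 10 genes stayed within 1.5 times or 0.1 on the log2 scale. The count at 2 h was 2 under a threshold of 2-fold (Klf4 and Klf10) or a minimum of 5 FPKM (Klf2 and Klf10). Of all genes at 2 h, 1.28% were at least 2-fold higher and 0.913% at least 2-fold lower. The share over all genes with a minimum of 5 FPKM was not counted. No log2 ratio of a member reversed, and 7 moved by over 0.1: Klf4 (0.77) and Klf10 (1.31) at 2 h and Klf7 at 7 d (0.19) with a pseudocount of 1 FPKM, Klf9 (0.12) and Klf10 (1.27) at 2 h with loci of a name summed, Klf9 at 2 h (0.03) with ties going to the higher FPKM, and Klf7 at 7 d (0.16) without the length trend. The setting for ties was chosen after seeing the data. A length was known for 82.5% to 83.2% of genes. Scaling the 6 groups to one median, also added after seeing the data, moved group medians by -0.04 to 0.04.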
